A study of Homo sapiens with 19 samples.

Results

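The genes described are 8 textbook targets of the transcription factor NRF2 (gene NFE2L2): NQO1, HMOX1, TXNRD1, GCLM, GCLC, SRXN1, SLC7A11 and TXN. These members were chosen with earlier results of these data known. They were matched by Ensembl identifier, and all 8 were found among the 32703 identifiers present in every one of 19 droplet single-cell RNA libraries of human liver organoids. The organoids were grown from W01, an established human pluripotent stem cell line from WiCell with a wild-type genotype, so every group rests on 1 line. Organoids in ultra-low attachment (ULA) plates were untreated and sampled on day 21 (n = 3 libraries) or day 34 (n = 2). Organoids on an orbital shaker were sampled on day 25 in 7 groups of 2 libraries. These were untreated, 10 ng/ml of TGFB1 (a transforming growth factor β), the control for TGFB1, PA at 500 µM, the control for PA, OA at 500 µM, and the control for OA. PA and OA stand as in the labels, which give no longer name. TGFB1 and PA were given for 5 days after 20 days of culture, per the labels, and the labels give no length for OA. The organoids of day 34 and of the shaker had one more wash and 10 more minutes in trypsin than those of day 21.

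NRF2 is held at a low level by KEAP1, which presents it to a CUL3 ubiquitin ligase for degradation. Electrophiles and oxidants modify KEAP1, and NRF2 then accumulates, pairs with a small MAF protein and binds antioxidant response elements, from which BACH1 can displace it. In liver the pathway is known for its defence against reactive metabolites, through glutathione synthesis, the thioredoxin system and the reduction of quinones.

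The members fall into 4 roles. SLC7A11 brings in cystine, and GCLC and GCLM are the catalytic and modifier subunits of the enzyme that limits glutathione synthesis. TXN, TXNRD1 and SRXN1 are thioredoxin, its reductase and the enzyme that repairs overoxidised peroxiredoxins. NQO1 reduces quinones, and HMOX1 breaks down heme. On GRCh38 (GENCODE v44), the 8 genes lie on 8 chromosomes: NQO1 at chr16:69706996-69726668 (minus strand), HMOX1 at chr22:35380361-35394214 (plus), TXNRD1 at chr12:104215779-104350307 (plus), GCLM at chr1:93885199-93909456 (minus), GCLC at chr6:53497341-53616970 (minus), SRXN1 at chr20:646615-653200 (minus), SLC7A11 at chr4:138164097-138242349 (minus) and TXN at chr9:110243810-110256507 (minus).

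The sequences below show where the core of the antioxidant response element lies in front of these genes, since that element is what the members are known to share. The letters TGACNNNGC were searched on both strands in the 1000 bases before each RefSeq start site of the GRCh38 table. It held entries for 6 members with 7 start sites, and HMOX1 and SLC7A11 had none. The core was present before 5 of the 6, all but SRXN1, and 31.9% of the 35116 promoters of that length hold it, so its presence is a description and not a site. Each line runs 5′ to 3′ along the transcript's strand, with the core or its reverse complement in capitals and 20 bases on either side.

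GCLM, at chr1:93909436-93909484 (minus strand), 34 to 26 bases before the start: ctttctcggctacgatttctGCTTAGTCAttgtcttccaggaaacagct

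GCLC, at chr6:53545943-53545991 (minus strand), 870 to 862 bases before the start: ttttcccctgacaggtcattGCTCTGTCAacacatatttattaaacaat

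TXN, at chr9:110257060-110257108 (minus strand), 581 to 573 bases before the start: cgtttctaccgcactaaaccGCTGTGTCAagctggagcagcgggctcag

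TXNRD1, the upstream start, at chr12:104215660-104215708 (plus strand), 99 to 91 bases before it: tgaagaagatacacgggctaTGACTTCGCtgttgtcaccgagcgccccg

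TXNRD1, the downstream start, at chr12:104286910-104286958 (plus strand), 102 to 94 bases before it: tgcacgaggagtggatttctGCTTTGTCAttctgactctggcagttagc

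NQO1, at chr16:69726987-69727035 (minus strand), 455 to 447 bases before the start: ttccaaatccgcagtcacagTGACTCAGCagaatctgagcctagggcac

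The NQO1 core overlaps the letters TGANTCA, the core of the AP-1 motif. In GCLM and at both TXNRD1 starts the core lay within the nearest 250 bases, where 10.9% of all promoters hold it.

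Levels are in CPM: the UMIs of a gene (unique molecular identifiers, 1 per captured RNA molecule), summed over the kept cells of a library and scaled to the library's total over the shared identifiers. A kept cell had 500 or more detected genes and no more than 20% of its counts from MT- genes. This left 120240 of 138053 deposited barcodes, with 3089 to 12427 cells and 6880807 to 91184130 UMIs per library, and a median of 1310 to 14304.5 UMIs per cell. Pairs of libraries shared a median of 9 barcodes. EPCAM-positive cells had a UMI of EPCAM, an epithelial adhesion gene, and none of the collagen genes COL1A2 and COL3A1, and collagen-positive cells had the converse. They made up 0.532% to 88.4% and 1.18% to 57.1% of a library. The gates leave out cells with UMIs of both kinds, 1.93% to 59.7%, and of neither, 0.301% to 44.7%. A single UMI decides a gate and free RNA was not measured, so the gates are not cell types. In the first day 34 ULA library 49.5% of cells were collagen-positive and 49.6% had both kinds. The summed level of 8 hepatocyte markers in EPCAM-positive cells was 2802 CPM or more in each of the TGFB1, OA and ULA groups. Nothing in the labels says that replicates came from separate cultures, so p-values measure the spread between these libraries, which may be technical. In summed counts, more cells of a type and more RNA per cell cannot be told apart.

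The 8 members varied in different ways over the 9 groups. Each treatment had its own control, and the experiments were not all counted with the same gene list. Levels set side by side across experiments are therefore a description with no test. NQO1 was 345 and 339.8 CPM with OA, and its level elsewhere ran from 12.5 CPM in a TGFB1 control library to 126 CPM in an untreated one. The mean was lowest in the TGFB1 control, at 15.5 ± 4.18 CPM (SD, n = 2), and the libraries of neighbouring groups overlapped except between day 34 ULA and the PA control and between untreated and OA. TXNRD1 was highest with OA at 165 and 136 CPM and next in untreated organoids at 68.2 and 54.7 CPM. GCLM was highest with OA at 38.5 and 39.2 CPM and lowest in the OA control at 9.25 and 10.4 CPM. These 3 genes had their highest libraries in the OA group.

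SLC7A11 had another order. It was 54.7, 65.4 and 59.9 CPM in day 21 ULA organoids, above the 31.5 and 24.9 CPM with OA, and lowest in the PA control at 2.18 and 3.05 CPM. TXN was highest in TGFB1, at 1003 and 939 CPM, and day 34 ULA organoids, at 922 and 1037 CPM, which overlapped. It was lowest in the PA experiment, with 219.7 and 241 CPM in the control and 181 and 449.9 CPM with PA. HMOX1 was lowest in the TGFB1 control, at 4.43 and 4.36 CPM. Its 6 libraries of the OA, OA control and untreated groups, at 11.7 to 22.6 CPM, were above each of the other 13. These 6 were counted with another software version and gene list than the other 13, which cannot be told apart from the experiment here. GCLC was the narrowest, from 9.31 CPM in a day 34 ULA library to 23.3 CPM with OA.

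SRXN1 was read almost only in the 6 libraries of the OA experiment and its untreated organoids, with 161 to 770 counts each. The other 13 libraries held 0 to 6 counts of it, where 3 counts correspond to 0.0339 to 0.436 CPM. The gene lists of those 13 differ, with 58676 genes for ULA and 33538 for the TGFB1 and PA experiments. Both lists also hold a readthrough transcript that overlaps SRXN1 on the same strand (AL121758.1, 0 counts), and the list of the 6 does not. The part this has in the SRXN1 counts was not tested, so SRXN1 was tested only where a library of the comparison had 10 or more counts.

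**Figure D1:**
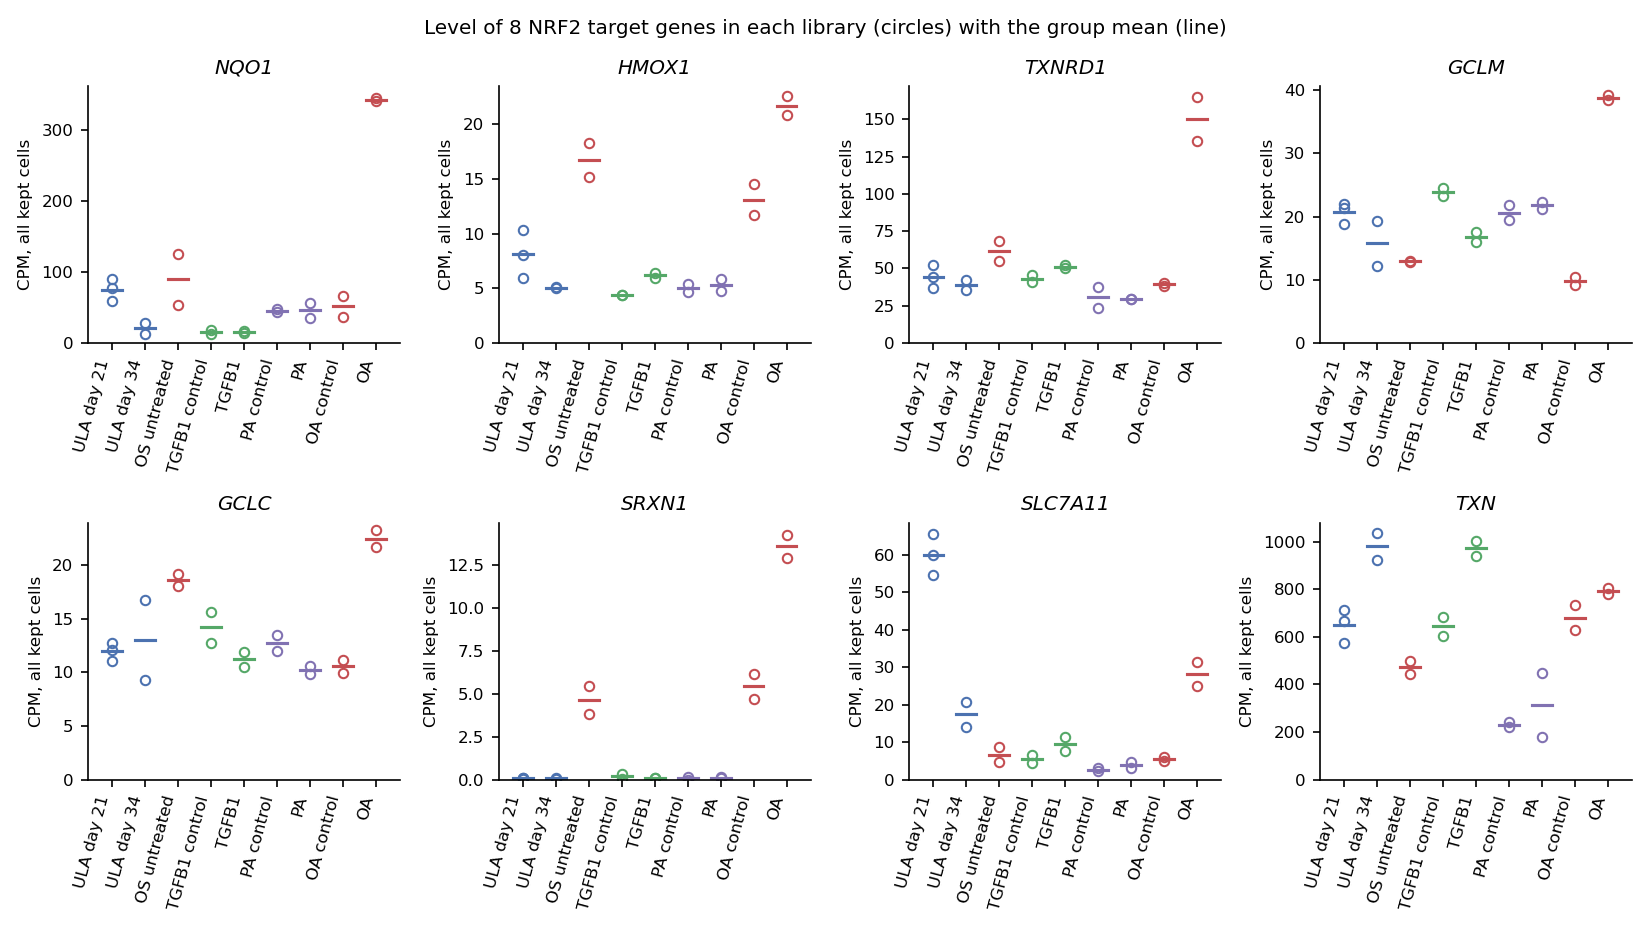
Level of each member in CPM over all kept cells (y axis, linear from 0, its own scale for each gene) in the 9 groups (x axis); circles are libraries and lines are group means. OA libraries stand highest for NQO1, TXNRD1, GCLM, GCLC, HMOX1 and SRXN1, while SLC7A11 is highest in day 21 ULA organoids and TXN in day 34 ULA and TGFB1 organoids. SRXN1 had only 0 to 6 counts in the 13 ULA, TGFB1 and PA experiment libraries. Those were counted with another software version and other gene lists than the OA, OA control and untreated libraries.

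OA was compared with its own control, and 7 of the 8 members rose, all but TXN, by 2.08 to 8.24 times (edgeR's quasi-likelihood test, Benjamini-Hochberg adjusted p under 0.05). Over all 19366 genes tested, 21.7% rose and 21.6% fell. The median log2 fold change of the members was 1.96, against -0.08 over all genes, and the OA libraries of all 8 members lay above both control libraries, as did those of 28.1% of genes with 10 or more counts in a library, while 55.4% lay below. Counts were scaled by TMM, a trimmed mean of gene ratios. With library totals in place of TMM the median of all genes moved from -0.08 to -0.42, and the share of called genes that were higher from 50.1% to 30.6%. The same 7 members still rose, by 0.73 (HMOX1) to 2.73 (NQO1) in log2 units, against 1.06 to 3.04 with TMM. Levels in CPM are scaled to library totals, so their ratios are smaller than the TMM fold changes here.

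In the quinone and heme branches, NQO1 was 66.2 and 37.1 CPM in the control and 345 and 339.8 CPM with OA. The control libraries differed from each other, and both were below the OA libraries. Its log2 fold change was 3.04, with an SE of 0.45 and an edgeR adjusted p of 0.00016. HMOX1 was 14.6 and 11.7 CPM in the control and 22.6 and 20.8 CPM with OA, the smallest change among the members that passed (1.06, SE 0.23, edgeR adjusted p = 0.00234).

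In the glutathione branch, SLC7A11 was 6.12 and 4.92 CPM in the control and 31.5 and 24.9 CPM with OA. GCLM, the modifier subunit, was 9.25 and 10.4 CPM in the control and 38.5 and 39.2 CPM with OA, and GCLC, the catalytic subunit, 9.95 and 11.2 CPM against 23.3 and 21.7 CPM. No control library overlapped an OA library in these 3 genes. The log2 fold changes were 2.68 for SLC7A11 (SE 0.36, edgeR adjusted p = 7.4e-05), 2.32 for GCLM (SE 0.16, edgeR adjusted p = 1.1e-06) and 1.43 for GCLC (SE 0.18, edgeR adjusted p = 5.5e-05). The difference between the 2 subunits was not tested.

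In the thioredoxin branch, TXNRD1 was 38.1 and 40.5 CPM in the control and 165 and 136 CPM with OA, and its log2 fold change was 2.28, with an SE of 0.22 and an edgeR adjusted p of 7e-06. SRXN1 was 6.17 and 4.71 CPM in the control and 14.3 and 12.9 CPM with OA (1.65, SE 0.36, edgeR adjusted p = 0.00236). TXN was 733 and 627 CPM in the control and 779 and 805 CPM with OA. Its libraries did not overlap either, but its change of 0.55 in log2 units did not pass, with an SE of 0.33 and an edgeR adjusted p of 0.193.

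The makeup of the libraries moved with OA. EPCAM-positive cells were 88.4% of both OA libraries and 32.4% and 23.1% of the control libraries. The summed level of 10 mesenchymal markers was 106 to 131 CPM with OA and 2751 to 4462 CPM in the control, and 10 of the 10 fell. The summed level of 5 gut epithelial markers was 2889 to 3437 CPM with OA and 258 to 484 CPM in the control, and that of 4 cycling markers 74.7 to 79.5 CPM and 221 to 245 CPM. The hepatocyte markers summed to 15251 to 17413 CPM with OA and 8594 to 11423 CPM in the control, and the epithelial markers to 9169 to 9752 and 6415 to 6768 CPM.

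The same test was therefore made within EPCAM-positive cells, and the same 7 of 8 members rose, where 19.1% of 17527 genes rose and 16.8% fell (53.1% of the called genes were higher, and 35.7% with library totals). NQO1 was 80.2 and 53.7 CPM in the control and 359 and 349.8 CPM with OA (log2 fold change 2.62, SE 0.41). SLC7A11 was 5.62 and 4.69 CPM against 32.9 and 25.7 CPM (2.72, SE 0.40), and GCLM 8.58 and 10.4 CPM against 39.8 and 39.9 CPM (2.32, SE 0.18). In these 3 genes the levels with OA were again above the control without overlap, as for 30.8% of genes in this gate. The log2 fold changes of the others that passed were 2.13 for TXNRD1, 1.48 for SRXN1, 1.24 for GCLC and 0.78 for HMOX1, with edgeR adjusted p of 0.0186 for HMOX1, which did not pass with library totals (0.55, edgeR adjusted p = 0.0638). TXN was 781 and 681 CPM in the control and 776 and 808 CPM with OA, which overlapped, and did not pass (0.34, SE 0.33, edgeR adjusted p = 0.45). Without the first OA library HMOX1 no longer passed (0.69, edgeR adjusted p = 0.126), nor without the second control library (0.62, edgeR adjusted p = 0.162), and without that control library SRXN1 did not either (1.32, edgeR adjusted p = 0.0517). HMOX1 also did not pass with replicate number fitted as a block.

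Within this gate the mesenchymal markers summed to 30.3 to 53.7 CPM with OA and 47.1 to 56.7 CPM in the control, with COL1A2 and COL3A1 at 0 by the gate. The hepatocyte markers summed to 15603 to 18083 CPM and 15956 to 16694 CPM. The gut epithelial markers still differed, at 2960 to 3599 CPM with OA and 361 to 598 CPM in the control. The summed cycling markers were 69.7 to 78.8 CPM with OA and 180 to 182 CPM in the control, the ductal markers 354 to 471 and 492 to 1039 CPM, and the macrophage markers 545 to 557 and 727 to 802 CPM. Of the 6 macrophage markers, C1QA, CD14 and MARCO had no counts in this gate with OA. CD163, C1QA and CD14 had none in the control, so these sums rest on the remaining genes of that list. The part of the marker lists in the members' changes was not tested. The median of UMIs per EPCAM-positive cell was 10339.5 and 8506 with OA and 8290 and 16080 in the control, so it overlapped. Only 60 and 38 cells of the OA libraries were collagen-positive, and no test was made in them. NQO1 was 22.6 and 25.8 CPM there, from 8 and 6 counts, and 19.8 and 12.5 CPM in the collagen-positive cells of the control.

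**Figure D2:**
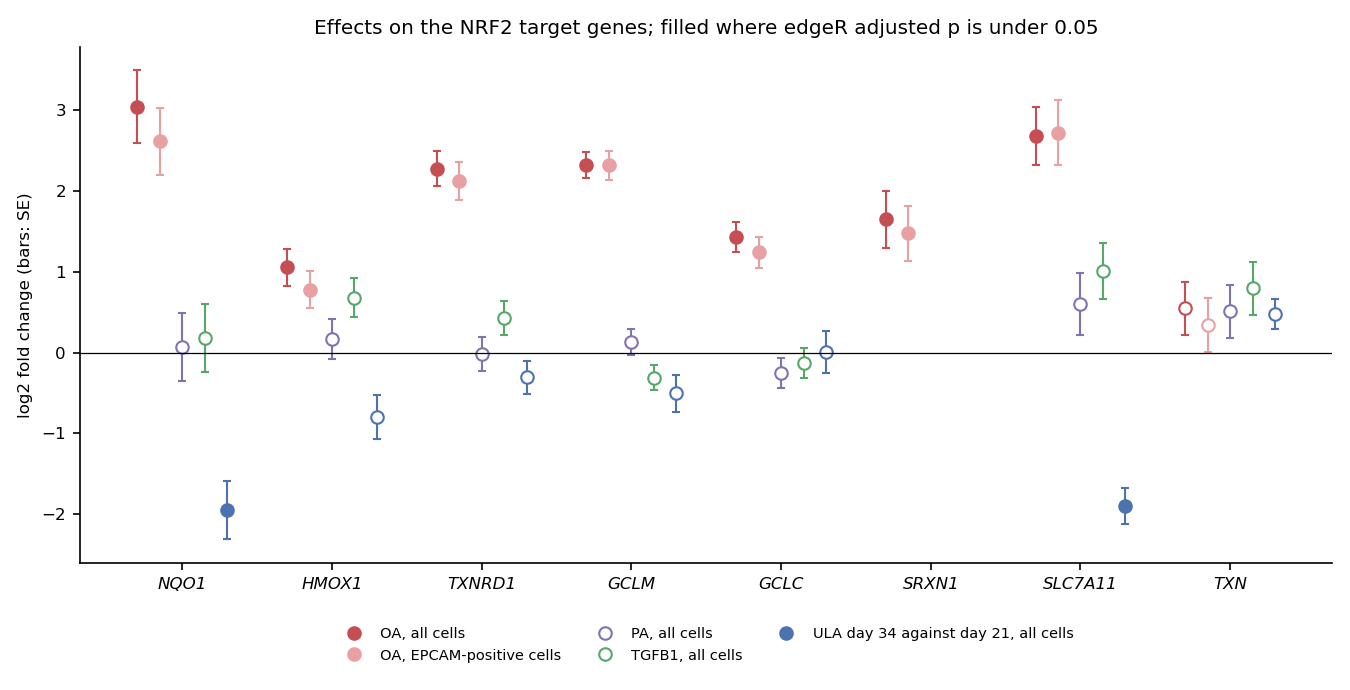
Log2 fold change of each member (y axis, bars are SE; x axis: members). The series are OA, PA, TGFB1 and the ULA comparison over all kept cells, and OA in EPCAM-positive cells. Points are filled where the edgeR adjusted p is under 0.05. With OA over all cells 7 of 8 points are filled, at 1.06 to 3.04, and in EPCAM-positive cells 7 of 8, at 0.78 to 2.72. In the ULA comparison the filled points are NQO1 at -1.95 and SLC7A11 at -1.90.

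The other genes of the pathway were described from a list of 66, of which 65 were tested. Like the members, this list was chosen with earlier results of these data known. With OA 35 rose and 1 fell (median log2 fold change 0.83), where 21.7% of all genes rose and 21.6% fell. In EPCAM-positive cells 29 of 65 rose and 0 fell, where 19.1% of all genes rose and 16.8% fell. Over all cells, 8 of 12 genes of carbonyl and quinone detoxification rose, 10 of 18 glutathione genes, 8 of 9 regulators, 3 of 6 heme and iron genes, 2 of 10 thioredoxin genes, 2 of 6 NADPH genes and 2 of 4 superoxide and peroxide genes. The thioredoxin and NADPH counts lie near the share of all genes. The largest changes were in aldo-keto reductases. AKR1B10 was 0.162 and 0.839 CPM in the control and 21.8 and 27.0 CPM with OA (5.98, SE 0.66), AKR1C1 was 11.2 and 13.0 CPM against 168 and 171 CPM (4.16, SE 0.27), and AKR1C2 rose by 3.42 (SE 0.38). AKR1C1 and AKR1C2 are near-identical copies between which reads may have been divided. GSTA2, a glutathione transferase, was 5.68 and 7.70 CPM in the control and 12.3 and 96.9 CPM with OA (3.37, SE 0.78). CBR1, a carbonyl reductase, rose by 3.53 (SE 1.19), but its OA libraries were 0.0192 and 2.86 CPM and its control libraries 0.126 and 0.191 CPM, so 1 library decides it. BLVRA, which reduces the biliverdin that HMOX1 makes, was the gene that fell (-0.74, SE 0.24, edgeR adjusted p = 0.0247).

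Among the regulators, which are given here for their role and after their values were seen, NFE2L2 itself was 99.5 and 114 CPM in the control and 191 and 192 CPM with OA (1.18, SE 0.22, edgeR adjusted p = 0.0009). SQSTM1, which binds KEAP1 for autophagy, rose by 2.32 (SE 0.21), BACH1 by 2.03 (SE 0.21) and NFE2L1, the related factor NRF1, by 1.29 (SE 0.32). The small MAF genes rose by 1.23 (MAFF), 1.02 (MAFK) and 0.62 (MAFG), and the ligase gene CUL3 by 0.75. KEAP1 did not pass (-0.30, SE 0.19, edgeR adjusted p = 0.212).

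OA control and untreated organoids share the shaker and the day, and 0 of 8 members differed between them by edgeR, while 0.0826% of genes were higher and 0.491% lower in the OA control. 2 members had an unadjusted p under 0.05, as did 14.6% of genes, and DESeq2 called 1, GCLC, and 3.62% of genes. GCLC was 18.0 and 19.2 CPM in untreated organoids and 9.95 and 11.2 CPM in the OA control (-0.68, SE 0.18, edgeR adjusted p = 0.111). GCLC, HMOX1, TXNRD1 and GCLM lay lower in the OA control without overlap, as 28.4% of genes did, and TXN higher, as 14.4% did. NQO1 spread widely in untreated organoids, at 53.5 and 126 CPM. Of the other pathway genes BACH1 was lower in the OA control (26.2 and 30.6 CPM) than in untreated organoids (55.1 and 73.7 CPM; -1.03, SE 0.20, edgeR adjusted p = 0.0481), and its level with OA, 86.9 and 95.5 CPM, lay above both. This comparison and that of OA share the OA control libraries.

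PA was given at the same 500 µM and sampled on the same day as OA, and 0 of 7 members passed over all cells, where 0.0465% of 19366 genes passed in either direction. 0 members had an unadjusted p under 0.05 by edgeR, where 2.79% of genes did, and DESeq2 called 0 members and 0.279% of genes. SLC7A11 was 2.18 and 3.05 CPM in the control and 3.15 and 4.67 CPM with PA, which did not overlap, as for 8.33% of genes that were higher (0.61, SE 0.38, edgeR adjusted p = 1). NQO1 was 47.5 and 43.7 CPM in the control and 35.0 and 57.0 CPM with PA, which did (0.07, SE 0.42). TXN was 219.7 and 241 CPM in the control and 181 and 449.9 CPM with PA, so the PA libraries lay on either side of the control. GCLC, at 13.5 and 12.0 CPM in the control and 9.87 and 10.6 CPM with PA, lay lower without overlap, as 14.8% of genes did. The other log2 fold changes were 0.17 for HMOX1, 0.13 for GCLM, -0.01 for TXNRD1 and -0.25 for GCLC, with SEs of 0.16 to 0.25. Within EPCAM-positive cells and within collagen-positive cells 0 of 7 passed as well (0.103% and 0% of genes), and the PA effect differed between these gates for 0 of 7 members (0.0107% of genes). In each of these 3 fits 0 members had an unadjusted p under 0.05 by edgeR, where 2.48%, 4.09% and 3.68% of genes did. DESeq2 called 0 members in each, and 0.268%, 0.127% and 0.0107% of genes. These p-values do not show that PA left the members as they were.

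The labels give PA and OA the same concentration and day, and each had its own control, so their effects were compared directly. The OA effect was larger than the PA effect for 5 of 7 members tested, where 10.2% of genes had a larger and 10.3% a smaller effect with OA (49.6% of the called genes, and 31.4% with library totals). The differences of log2 fold change were 2.97 for NQO1 (SE 0.61, edgeR adjusted p = 0.00446), 2.29 for TXNRD1 (SE 0.30), 2.19 for GCLM (SE 0.23), 2.08 for SLC7A11 (SE 0.51) and 1.68 for GCLC (SE 0.26). SLC7A11 did not pass without the second PA control library (1.77, edgeR adjusted p = 0.137), the second OA control library (1.85, edgeR adjusted p = 0.0593) or the first OA library (1.87, edgeR adjusted p = 0.0530). HMOX1 (0.88, SE 0.34, edgeR adjusted p = 0.0793) and TXN (0.04, SE 0.46, edgeR adjusted p = 0.97) did not pass. The experiments were counted with different software versions and gene lists, which cannot be told apart from the compound here. Their makeup also moved differently: EPCAM-positive cells were on average 27.7% in the OA control and 88.4% with OA, and 61.5% in the PA control and 70.1% with PA, and the part of this was not tested. Among the other pathway genes, 20 of 65 had a larger effect with OA and 0 a smaller one, led by AKR1B10, GSTA2 and AKR1C1.

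With TGFB1, a cytokine of fibrosis, 0 of 7 members passed over all cells, while 10.9% of genes rose and 11.3% fell (49% of the called genes were higher, and 31.6% with library totals). 3 members had an unadjusted p under 0.05, as did 36% of genes, and DESeq2 called 1, SLC7A11, and 25.1% of genes. SLC7A11 was 6.64 and 4.44 CPM in the control and 11.3 and 7.65 CPM with TGFB1 (1.01, SE 0.35, edgeR adjusted p = 0.0556). HMOX1 was 4.43 and 4.36 CPM against 6.45 and 5.92 CPM (0.68, SE 0.24, edgeR adjusted p = 0.0568). TXN was 683 and 604 CPM against 1003 and 939 CPM (0.80, SE 0.33, edgeR adjusted p = 0.0986). The libraries did not overlap in these 3 genes nor in TXNRD1 (40.9 and 45.5 against 52 and 50 CPM), and the levels with TGFB1 were the higher ones, as for 24.6% of genes. GCLC (15.6 and 12.7 against 11.9 and 10.5 CPM) lay lower without overlap, as 43.7% of genes did. GCLM was 24.5 and 23.2 CPM in the control and 17.6 and 15.9 CPM with TGFB1 and was also lower without overlap (-0.31, SE 0.16, edgeR adjusted p = 0.172). NQO1 was 12.5 and 18.4 CPM against 14.8 and 16.5 CPM and overlapped (0.18, SE 0.43).

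Over all cells the summed mesenchymal markers were 657 to 670 CPM in the TGFB1 control and 1627 to 2016 CPM with TGFB1, and the hepatocyte markers 2593 to 3921 and 4515 to 5359 CPM. The gut epithelial markers were 181 to 214 and 68.6 to 83.9 CPM, and the cycling markers 198 to 291 and 12.0 to 13.9 CPM. Their part in the changes of members and pathway genes was not tested.

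Of the 65 other pathway genes tested, 9 rose and 11 fell with TGFB1, where 10.9% of all genes rose and 11.3% fell, so these counts lie near those shares. The glutathione enzymes GSTA1 (-5.26, SE 0.67), GSTA2 (-4.20, SE 1.16), GPX3 (-2.09, SE 0.45) and MGST1 (-1.55, SE 0.40) fell, as did TXNIP, which inhibits thioredoxin (-1.49, SE 0.26). ME1, which makes NADPH, rose by 1.95 (SE 0.30), and the peroxiredoxins PRDX5 and PRDX4 by 1.35 and 1.33. SLC7A11 is also a known target of ATF4, the factor of the amino acid response, and 10 of 14 genes of an ATF4 list rose with TGFB1 and 0 fell, beside those same shares. SLC3A2, the partner chain of SLC7A11, rose by 2.11 (SE 0.31) and CHAC1, which degrades glutathione, by 1.61 (SE 0.32). With OA 6 of the 14 rose and 2 fell, where 21.7% of all genes rose and 21.6% fell. CHAC1 rose by 2.19 (SE 0.33) and TRIB3 by 1.80 (SE 0.33), and the serine pathway genes PHGDH and SHMT2 fell by 1.14 and 0.76. With PA 0 of the 14 and 0 of the 65 passed over all cells. In EPCAM-positive cells SOD2, the mitochondrial superoxide dismutase, rose with PA (1.60, SE 0.28, edgeR adjusted p = 0.0486).

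**Figure D3:**
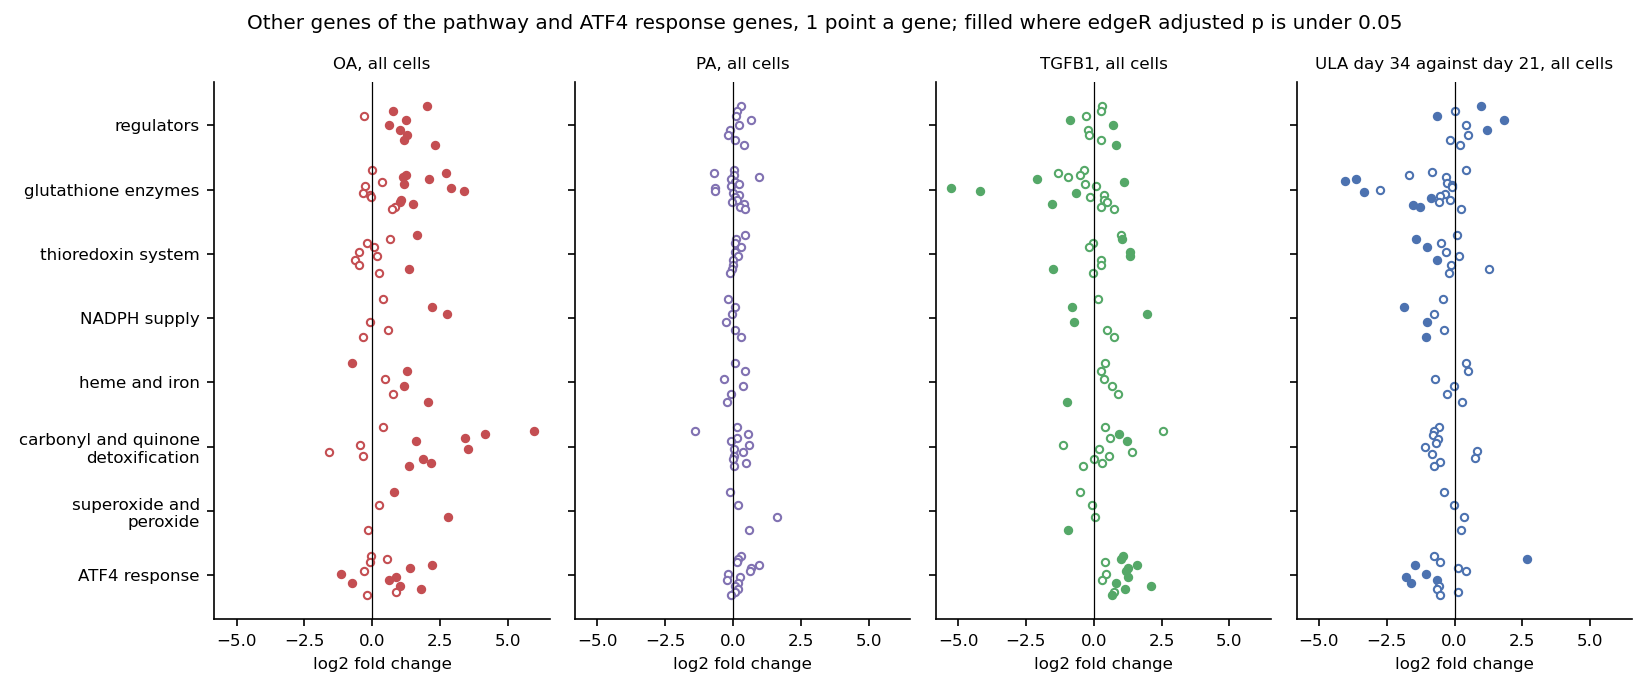
Log2 fold change (x axis, the same scale in every panel) of the other pathway genes and the ATF4 list over all kept cells, 1 point a gene, in rows by role (y axis) and panels by comparison, filled where the edgeR adjusted p is under 0.05. With OA 35 pathway points are filled on the right and 1 on the left; with TGFB1 9 and 11; with PA none.

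Within EPCAM-positive cells 0 of 7 members passed with TGFB1 (12.3% of genes rose and 12.7% fell; 49.2% of the called genes were higher, and 32.3% with library totals). 3 had an unadjusted p under 0.05, as did 37.5% of genes, and DESeq2 called 1, TXN, and 25.7% of genes. GCLM was 26.0 and 23.8 CPM in the control and 17.3 and 14.9 CPM with TGFB1 (-0.43, SE 0.17, edgeR adjusted p = 0.0796). With library totals in place of TMM it passed (-0.62, edgeR adjusted p = 0.0291). NQO1 was 12.9 and 19.4 CPM against 13.9 and 14.7 CPM (-0.02, SE 0.40).

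Within collagen-positive cells 0 of 7 passed, where 0.0211% of 14189 genes did in either direction. 3 members had an unadjusted p under 0.05, as did 13.4% of genes, and DESeq2 called 1, NQO1, and 0.768% of genes. NQO1 was 8.07 and 7.06 CPM in the control and 23.1 and 27.4 CPM with TGFB1 (2.00, SE 0.44, edgeR adjusted p = 0.14). These levels did not overlap, as for 15.6% of genes that were higher, and they rest on 6 and 15 counts in the control and 74 and 109 with TGFB1. GCLM was 16.1 and 18.4 CPM against 24.7 and 23.4 CPM (0.68, SE 0.32).

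The TGFB1 effect itself differed between the gates for 2 of 7 members, NQO1 and GCLM, where it was higher in EPCAM-positive cells for 3.71% of 18747 genes and lower for 2.61%. The effect in EPCAM-positive cells minus that in collagen-positive cells was -2.14 for NQO1 (SE 0.45, edgeR adjusted p = 0.00328) and -1.16 for GCLM (SE 0.31, edgeR adjusted p = 0.0272). Without the second TGFB1 control library the NQO1 difference did not pass (-1.73, edgeR adjusted p = 0.227), and GCLM did not pass without any one of the 4 libraries (edgeR adjusted p = 0.0701 to 0.218). The summed mesenchymal markers in EPCAM-positive cells were 21.9 to 43.9 CPM in the control and 357 to 414 CPM with TGFB1, with COL1A2 and COL3A1 at 0 by the gate. In the same cells the cycling markers were 202 to 314 CPM in the control and 4.20 to 9.11 CPM with TGFB1, the macrophage markers 213 to 248 and 38.7 to 48.6 CPM, and the gut epithelial markers 194 to 234 and 78.1 to 98.2 CPM. The hepatocyte markers were 2802 to 4182 CPM in the control and 5232 to 6163 CPM with TGFB1 in these cells. Their epithelial markers were 4545 to 7299 and 8862 to 11336 CPM, and the ductal sums overlapped. Of the 6 macrophage markers, C1QA and MARCO had no counts in these cells in the control, and C1QA and CD14 had none with TGFB1. In collagen-positive cells the cycling markers were 99.8 to 262 and 44.4 to 70.1 CPM. The part of these lists in the difference was not tested. The summed epithelial markers in collagen-positive cells were 1018 to 1712 CPM in the control and 1259 to 1515 CPM with TGFB1, and the hepatocyte markers 127 to 887 and 139 to 147 CPM. The 2 control libraries differed in depth, with a median of 1320 and 5042 UMIs per collagen-positive cell, against 4748 and 5757 with TGFB1. Of the control cells 44.7% and 4.91% lay in neither gate. The part of depth in the difference was not tested.

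In ULA organoids NQO1 and SLC7A11 fell between day 21 and day 34, 2 of 7 members tested, where 8.43% of 22257 genes were higher and 7.18% lower on day 34 (54.0% of the called genes were higher, and 66.6% with library totals). NQO1 was 76.8, 58.9 and 90.1 CPM on day 21 and 13.4 and 28.9 CPM on day 34 (-1.95, SE 0.36, edgeR adjusted p = 0.0146). It did not pass without the first day 21 library (-1.94, edgeR adjusted p = 0.0645) or the third (-1.79, edgeR adjusted p = 0.0761). SLC7A11 was 54.7, 65.4 and 59.9 CPM against 14.1 and 20.7 CPM (-1.90, SE 0.22, edgeR adjusted p = 0.00328). With replicate number fitted as a block, neither NQO1 (edgeR adjusted p = 0.129) nor SLC7A11 (edgeR adjusted p = 0.0664) passed. The days did not overlap in either gene, as for 19.4% of genes that were lower. HMOX1 (-0.80, edgeR adjusted p = 0.0865), GCLM (-0.51), TXNRD1 (-0.31), GCLC (0.01) and TXN (0.47, edgeR adjusted p = 0.128) did not pass. By edgeR 4 members had an unadjusted p under 0.05, as did 32.8% of genes. DESeq2 also called HMOX1 (-0.79) and TXN (0.48), where it called 22.5% of genes. The extra wash and trypsin of day 34 cannot be told apart from the day.

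The makeup moved here too. EPCAM-positive cells were 18.3%, 11.7% and 18.8% on day 21 and 0.53% and 6.01% on day 34, while cells with both EPCAM and collagen UMIs were 42.5%, 29.8% and 36.8% and then 49.6% and 59.7%. The summed epithelial markers overlapped, at 4321 to 5904 CPM on day 21 and 4944 to 6223 CPM on day 34. The hepatocyte markers summed to 2044 to 2263 CPM on day 21 and 83.6 to 770 CPM on day 34. The gut epithelial markers were 147 to 255 and 2.46 to 16.7 CPM, and the cycling markers 740 to 827 and 355 to 493 CPM. The macrophage markers, with C1QA at 0 on both days, were 90.2 to 168 and 3.04 to 36.8 CPM. The mesenchymal and ductal sums overlapped. The part of these lists over all cells was not tested. In EPCAM-positive cells only the second day 34 library had 50 or more cells, so day 34 has no replicate and no spread of its own there, and the values are a description. NQO1 was 159, 162 and 183 CPM on day 21 and 29.3 CPM in that library. SLC7A11 was 51.3, 45.7 and 54.3 CPM against 16.0 CPM. Within this gate, over both day 34 libraries, the gut epithelial markers summed to 567 to 677 CPM on day 21 and 83.0 to 115 CPM on day 34, the ductal markers to 234 to 271 and 1056 to 1451 CPM, and the hepatocyte markers to 5921 to 7736 and 4294 to 5366 CPM. Their part in the levels of NQO1 and SLC7A11 was not tested. A fit that assumes the lone library to vary as the day 21 libraries do called these 2 of 7 members, where 9.26% of genes were higher and 8.32% lower (52.7% of the called genes were higher, and 80.8% with library totals).

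In collagen-positive cells, with both day 34 libraries, SLC7A11 fell from 54.3, 73.1 and 57.1 CPM to 17.2 and 28.2 CPM (-1.57, SE 0.26, edgeR adjusted p = 0.00683). NQO1 was 21.0, 21.2 and 19.4 CPM on day 21 and 16.0 and 42.5 CPM on day 34, on either side (0.38, SE 0.34, edgeR adjusted p = 0.468). Whether the NQO1 change differs between the gates was not tested. In this gate the cycling markers summed to 975 to 1075 CPM on day 21 and 526 to 562 CPM on day 34, and the ductal markers to 23 to 29.7 and 73.3 to 401 CPM, and their part was not tested. TXN rose from 455, 534 and 384 CPM to 884 and 999 CPM (0.92, SE 0.20, edgeR adjusted p = 0.0191), and did not pass without the first day 21 library (0.91, edgeR adjusted p = 0.110) or the third (0.81, edgeR adjusted p = 0.0612). TXN also did not pass with replicate number fitted as a block. Thus 1 of 7 members was higher and 1 lower, where 10.5% of genes were higher and 7.2% lower (59.3% of the called genes were higher, and 74.3% with library totals).

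Of the 65 other pathway genes tested, 3 rose and 13 fell by day 34 over all cells, where 8.43% of all genes rose and 7.18% fell. The small MAF genes MAFF (1.82, SE 0.28) and MAFK (1.18, SE 0.20) and BACH1 (0.98, SE 0.23) were those that rose. GPX3 (-4.04, SE 0.57), GPX2 (-3.62, SE 0.82), GSTA2 (-3.34, SE 0.63), IDH1 (-1.88, SE 0.25) and MGST1 (-1.54, SE 0.20) fell furthest. Of the ATF4 list, ATF3 rose by 2.66 (SE 0.31) and 5 genes fell, among them PSAT1 (-1.80, SE 0.22).

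**Figure D4:**
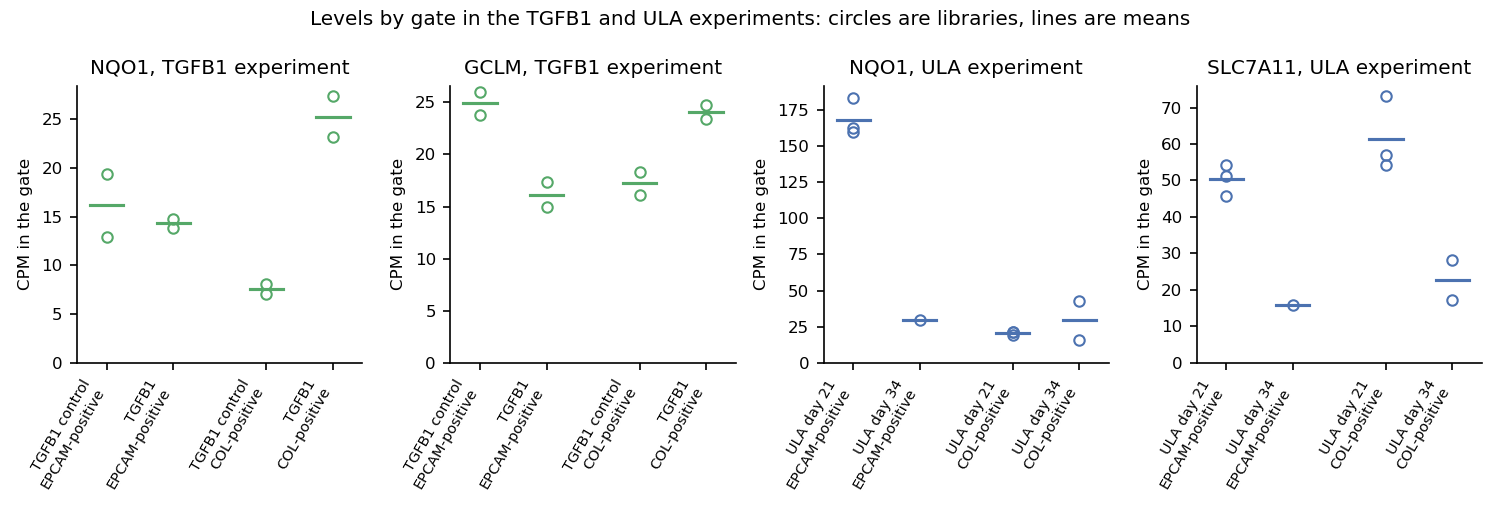
Level in CPM (y axis, linear from 0) within EPCAM-positive and collagen-positive cells of the TGFB1 and ULA experiments (x axis: gate and group); circles are libraries and lines are means. NQO1 with TGFB1 lies above its control in collagen-positive cells (23.1 and 27.4 against 8.07 and 7.06 CPM) and among its control in EPCAM-positive cells, while SLC7A11 is lower on day 34 in both gates.

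The gates were also compared within libraries, over the 17 libraries with 50 or more cells in each. NQO1, GCLC, TXN and GCLM were higher in EPCAM-positive cells, 4 of the 7 members with counts in every experiment, where 35.2% of 18191 genes were higher and 27.7% lower (55.9% of the called genes were higher, and 45% with library totals). The fit also called SRXN1, which has few or no counts in most of these libraries. The difference of log2 levels was 1.76 for NQO1 (SE 0.36, edgeR adjusted p = 0.00025), 0.61 for GCLC (SE 0.11, edgeR adjusted p = 7.8e-05), 0.59 for TXN (SE 0.09, edgeR adjusted p = 9.2e-06) and 0.46 for GCLM (SE 0.16, edgeR adjusted p = 0.0166). HMOX1 (0.47, SE 0.29), TXNRD1 (0.21, SE 0.17) and SLC7A11 (-0.49, SE 0.33) did not pass.

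The GCLC difference did not pass in the TGFB1 experiment alone (0.18, edgeR adjusted p = 0.584) or the PA experiment alone (0.19, edgeR adjusted p = 0.506). The GCLM difference did not pass with library totals (0.31, edgeR adjusted p = 0.0519). Without the first PA control library it was 0.36 (edgeR adjusted p = 0.0633), and without the second PA library 0.37 (edgeR adjusted p = 0.0598). It did not pass in the OA experiment alone (0.62, edgeR adjusted p = 0.0555) or the ULA experiment alone (0.25, edgeR adjusted p = 0.0752) either. In the OA experiment and its untreated organoids, where SRXN1 had counts to compare, its difference was 0.54 and did not pass (edgeR adjusted p = 0.0741), against 1.00 over the 17 libraries (edgeR adjusted p = 0.00305). SRXN1 was 3.93 and 5.57 CPM in EPCAM-positive and 4.25 and 4.5 CPM in collagen-positive cells of untreated organoids, which overlapped, and 6.27 and 5.52 against 4.13 and 4.16 CPM in the OA control.

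The estimate did not have the same sign in each experiment. In the 4 libraries of the TGFB1 experiment alone the difference was -0.29 for NQO1 (edgeR adjusted p = 0.607). It was -0.29 for GCLM there (edgeR adjusted p = 0.394), so neither passed. Both genes were higher in the EPCAM-positive cells of the TGFB1 control libraries and lower in those of the TGFB1 libraries, and these estimates pool the 2 groups. In the ULA day 21 libraries NQO1 was 159, 162 and 183 CPM in EPCAM-positive cells and 21.0, 21.2 and 19.4 CPM in collagen-positive cells. SLC7A11 was 41.7 and 26.8 CPM in the collagen-positive cells of the TGFB1 control and 5.67 and 3.23 CPM in its EPCAM-positive cells, and in day 21 ULA organoids its gates met at 54.3 CPM, with 51.3, 45.7 and 54.3 CPM in EPCAM-positive and 54.3, 73.1 and 57.1 CPM in collagen-positive cells. HMOX1 was 16.0 and 14.1 CPM in EPCAM-positive and 6.44 and 6.31 CPM in collagen-positive cells of the OA control. In day 21 ULA organoids it was 10.0, 10.7 and 9.27 CPM and 12.5, 13.4 and 6.85 CPM, which overlapped. Of the other pathway genes, 40 of 64 were higher in EPCAM-positive cells and 8 lower, where 35.2% of all genes were higher and 27.7% lower. They were led by GSTA2 (5.14, SE 0.38), GPX2 (5.13, SE 0.48) and ABCC3 (4.35, SE 0.35) above and CBR3 (-1.56, SE 0.36) below.

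**Figure D5:**
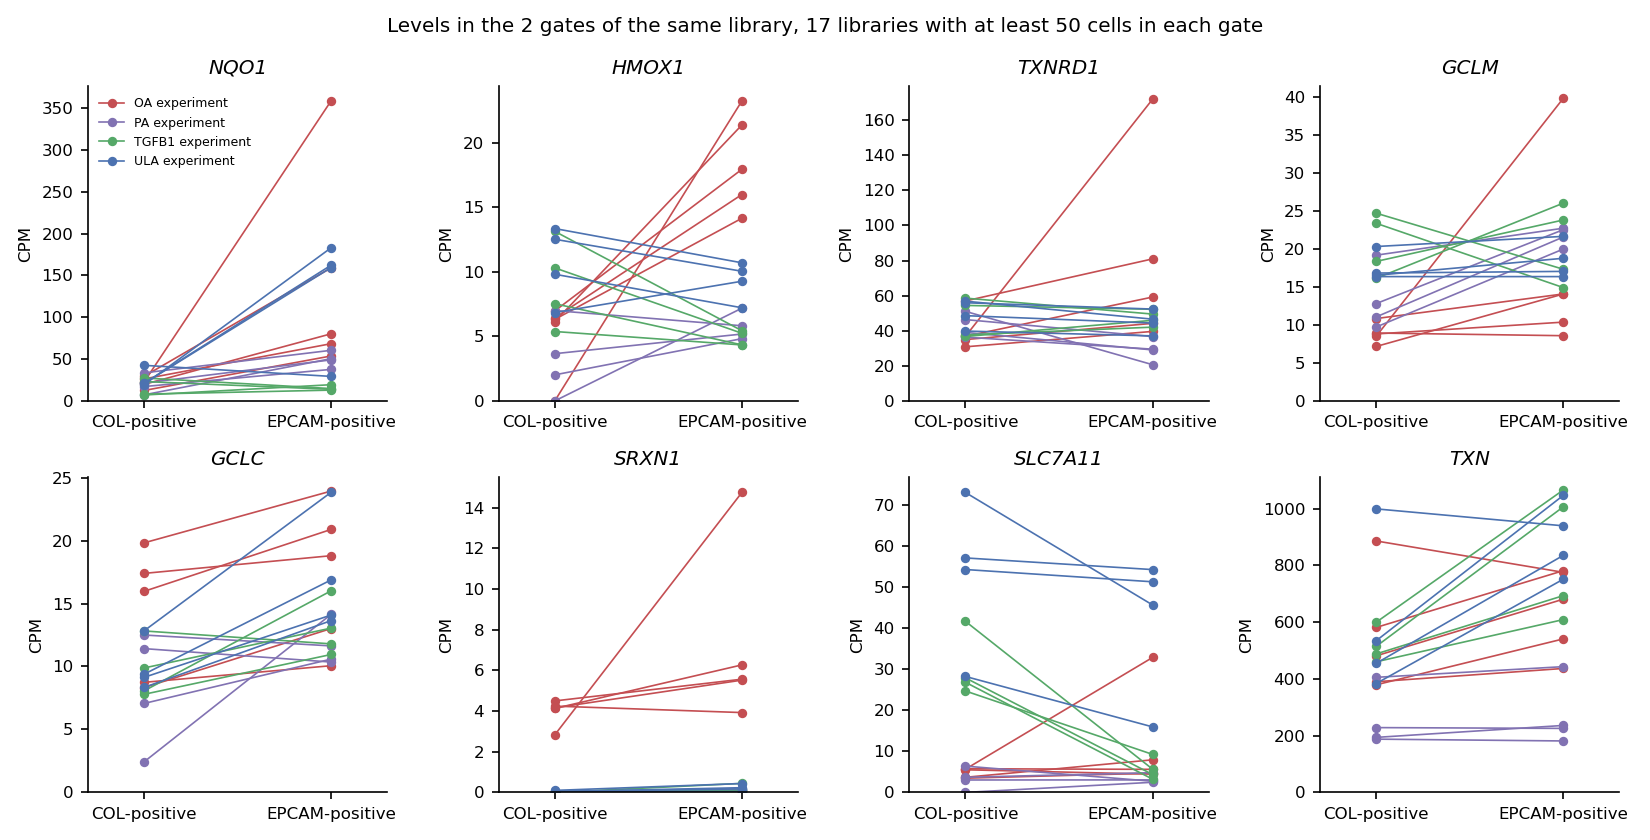
Level of each member in CPM (y axis, linear from 0) in collagen-positive and EPCAM-positive cells (x axis), with a line for each of 17 libraries, coloured by experiment. The lines of NQO1 rise in the day 21 ULA libraries and fall in the TGFB1-treated ones, and those of SLC7A11 fall in the libraries of the TGFB1 experiment.

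How alike the members were was described over the 19 libraries by Pearson's r of log2(CPM + 1) after the mean of each experiment was subtracted. The libraries share depth and makeup with their group, so r is a description. NQO1 went with SLC7A11 (r = 0.903) and GCLM (r = 0.827), and TXNRD1 with GCLM (r = 0.884). TXN stood apart, with r of -0.0518 to 0.207 with the other members. Among 8982 genes with a mean of 10 CPM or more, those most like NQO1 were CIDEB (r = 0.973) and C9orf40 (r = 0.961). They were ALAS1 (r = 0.955) and EPS8 (r = 0.946) for TXNRD1, LINC01559 (r = 0.964) and RETREG1 (r = 0.956) for GCLM, and NUP50 (r = 0.962) and SH3D19 (r = 0.929) for GCLC. They were PCK2 (r = 0.965) and RHOF (r = 0.945) for SLC7A11, and SEC61B (r = 0.898) and ZNF706 (r = 0.869) for TXN. HMOX1 and SRXN1 were under that mean and were not compared.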

How the data were processed

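The authors deposited 10x Genomics 3′ UMI counts per gene and barcode for each library, as whole numbers with no normalization, per the file headers, which give software versions 3.0.2 (ULA, TGFB1 and PA) and 6.0.2 (OA, its control and untreated). The submitters' processing notes list Cell Ranger 3.0.2 and the build GRCh38. The members and lists were chosen with earlier results of these data known. Counts of kept cells were summed per library and gate. edgeR 4.0.16 (quasi-likelihood test, TMM, filterByExpr, Benjamini-Hochberg over all genes tested) was fitted to the 14 shaker libraries, to the 5 ULA libraries and to each gate; the gates were compared with library as a block. A member was tested where a library of the comparison had 10 or more counts. The 8 members are always named, and of each list up to 5 called genes per direction with the largest change. Alternatives were DESeq2 1.42.0, library totals, no filter, only the compared libraries, other cell filters, removal of putative doublets, another gate, a replicate block and leaving out each library. Doublets were otherwise kept. The fits were tested on simulated data. Software was R 4.3.3 and Python 3.11.15.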

Additional observations from a re-analysis of the deposited data

Results flagged for a closer look

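The effect of TGFB1 on NQO1 and on GCLM differed between EPCAM-positive and collagen-positive cells by a test of the difference itself. The effect in EPCAM-positive cells minus that in collagen-positive cells was -2.14 on the log2 scale for NQO1 and -1.16 for GCLM. The NQO1 difference did not pass without the second TGFB1 control library (edgeR adjusted p = 0.227), and the GCLM difference did not pass without any one of the 4 libraries or with the larger-count gate (-0.91, edgeR adjusted p = 0.111). Neither effect passed within a gate alone in the main edgeR fit. With no filter on low counts NQO1 passed in collagen-positive cells (2.01, edgeR adjusted p = 9.6e-05). It also passed there with the larger-count gate (1.73, edgeR adjusted p = 0.0425) and a crossed replicate block (1.96, edgeR adjusted p = 0.00322). GCLM passed in EPCAM-positive cells with library totals (-0.62, edgeR adjusted p = 0.0291). The collagen-positive cells of the TGFB1 control held only 6 and 15 counts of NQO1. Those control cells differed in depth between the libraries, with a median of 1320 and 5042 UMIs per cell.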

How the results depend on the processing

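The members called in the main fits were compared under alternatives. Of these comparisons 467 kept direction and call, 29 kept direction and lost the call, and 2 changed sign. Those were NQO1 (-0.29, edgeR adjusted p = 0.607) and GCLM (-0.29, edgeR adjusted p = 0.394) between gates in the TGFB1 libraries alone, and neither passed. Members not called in a main fit are outside this tally. It includes SRXN1 between gates and the EPCAM-positive ULA fit with its lone day 34 library. The 7 members called with OA over all cells passed under each of 12 alternatives, for example NQO1 at 2.63 to 3.62. Library totals gave 6 of 8 with OA in EPCAM-positive cells (without HMOX1) and 4 in place of 5 between gates, SRXN1 counted (without GCLM). Counts that moved by over 1.5 times, or to or from 0, were these. With TGFB1 over all cells DESeq2 gave 1, and no filter, all barcodes and a crossed replicate block (chosen after seeing the data) gave 2 each. In EPCAM-positive cells DESeq2, library totals and the crossed block gave 1 each and no filter 2, and leaving out a library 0 to 1. In collagen-positive cells DESeq2, no filter, the larger-count gate (chosen after seeing the data) and the crossed block gave 1 each. The TGFB1 difference between gates gave 1 with the larger-count gate and 0 to 1 without a library. OA control against untreated gave 1 with DESeq2. The ULA comparison gave 4 with DESeq2, which called 22.5% of genes there. It gave 0 with a replicate block and 1 to 2 without a library. In collagen-positive cells it gave 1 with the block and 1 to 2 without a library. EPCAM-positive against collagen-positive cells gave 3 in the ULA libraries alone and 3 in the TGFB1 libraries alone. The cause was not tested. Whether replicate numbers pair the samples was not settled. Same-numbered libraries correlated at -0.557 (TGFB1), 0.167 (PA), 0.0341 (OA), -0.672 (OA control and untreated) and -0.213 and -0.264 (ULA). Between groups of 2 libraries, opposite numbers give the same value with the other sign. Leaving out the second day 34 library was not run in EPCAM-positive cells, since no day 34 library would remain. The number of cells limits the collagen-positive gate of the OA libraries.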
